A study of Caenorhabditis elegans with 15 samples.

Results

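Caenorhabditis elegans larvae carrying a deletion in zfp-1 were compared with wild-type larvae across all genes measured on whole-genome Affymetrix arrays. The comparison used 5 of the 13 biological samples of the series, 2 populations of the zfp-1 mutant and 3 of the wild type, and 8653 of 17118 genes with a probe set were bright enough to be tested. A gene was tested when its log2 value reached 5 in at least 2 of the 13 samples. The series asked how RNAi factors and a retinoblastoma-related gene affect the transcriptome of young larvae, and it held 3 further mutant strains that were fitted in the same model. All values below are log2 values on the deposited scale unless a fold is stated, and a change is the mean of the zfp-1 mutant minus the mean of the wild type.

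The zfp-1 mutant was strain RB774, with the allele zfp-1(ok554) on chromosome III, and the wild type was Bristol N2. The other strains were VC446 with alg-1(gk214) on X, BB11 with rde-4(ne299) on III, and MT3033 with lin-35(n745) and unc-13(e1091) on I, called the lin-35 mutant here. All 5 groups were hatched in liquid without food so that they arrested at the first larval stage, were fed OP50 bacteria for 6 to 7 h, and gave total RNA from whole animals labelled as stage L1 to L2. Each mutant was 1 strain with 1 allele, and the sources used here do not say whether the strains were outcrossed, so the allele and the rest of the strain's genome cannot be told apart. Replicate 2 of the zfp-1 mutant was hybridised to 2 arrays, which were averaged. In whole animals, fewer cells of a type and less RNA per cell cannot be told apart.

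ZFP-1 is a chromatin protein with PHD zinc fingers, the worm relative of mammalian AF10. It works with DOT-1.1, the enzyme that methylates lysine 79 of histone H3, at the promoters of widely expressed genes, where the pair is known to hold back RNA polymerase II. zfp-1 was found through its part in RNA interference and in the endogenous siRNA pathway, and pdk-1, a kinase gene of insulin signalling, is a known ZFP-1-bound gene.

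The 6 arrays of the zfp-1 mutant and the wild type were alike in overall brightness, with medians between 4.54 and 4.75 and between 8140 and 8306 genes at or above 5. The zfp-1 replicates differed little from each other: the SD of the gene-by-gene difference between them was 0.36, against 0.22 between the 2 arrays of replicate 2 and 0.61 to 0.72 between wild-type samples. The wild-type samples were uneven: along the second principal component of all samples replicates 1 and 2 had scores of 46.1 and 49.3, replicate 3 one of 13.6, and the zfp-1 samples -11.4 and -16.7. The 3′ minus 5′ difference of the actin control probe sets, a sign of RNA integrity and labelling, was 1.25 to 2.22 on the wild-type arrays and 0.92 to 1.5 on the zfp-1 arrays, and that of GAPDH was 0.49 to 0.81 and 0.02 to 0.7. The part of these differences in the results was not tested.

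The zfp-1 transcript itself read 13.69, 13.35 and 13.48 in the wild type and 13.55 and 13.49 in the mutant. The groups overlapped, and the change was 0.01 ± 0.22 (SE, limma adjusted p = 0.99). The sources used here do not say where the probes lie relative to the deletion, so this value does not check the strain.

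In the zfp-1 mutant 363 genes passed an adjusted p of 0.05 (limma, 4.2% of the genes tested). Of these, 110 rose (1.27%) and 253 fell (2.92%), while the median change of all tested genes was -0.01. The falls were the larger group and the larger changes: their median size was 1.63, with 82 over 2 and 27 over 3, whereas the median rise was 1.31, with 16 over 2 and 5 over 3. In 36 of the falls both zfp-1 samples lay below 5, and in 5 of the rises all 3 wild-type samples did. Without wild-type replicate 3 the falls no longer outnumbered the rises, with 429 rises and 422 falls. Of the calls above, 107 of the 110 rises and 238 of the 253 falls passed again in that omission.

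Both zfp-1 samples lay beyond all 3 wild-type samples for all 363 genes, which was also true of 44.8% of all tested genes. For 44 rises and 101 falls both zfp-1 samples also lay beyond all 11 samples of the other 4 strains. Among all tested genes 3880 lay beyond all 3 wild-type samples and 493 (5.7%) beyond all 11. The called genes were picked by their difference from the wild type, so the 5.7% is not a like share for them. Measured against wild-type replicate 3 alone, the median rise was 1.07 and the median fall was -1.4, compared with 1.42 and -1.76 against the mean of replicates 1 and 2. With both zfp-1 samples beyond all 3 wild-type samples in all 363 genes, the sign against replicate 3 could not differ. Replicate 3 was the wild-type sample nearest to the mutant for 75 rises and 144 falls. Many calls rested on the number of samples: 42 of the 363 passed again without zfp-1 replicate 1, 45 without zfp-1 replicate 2, and 182, 128 and 345 without wild-type replicates 1, 2 and 3. Set against wild-type replicate 3 alone, 17 passed again. The calls that passed again on omission of each of the 5 samples numbered 29.

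**Figure D1:**
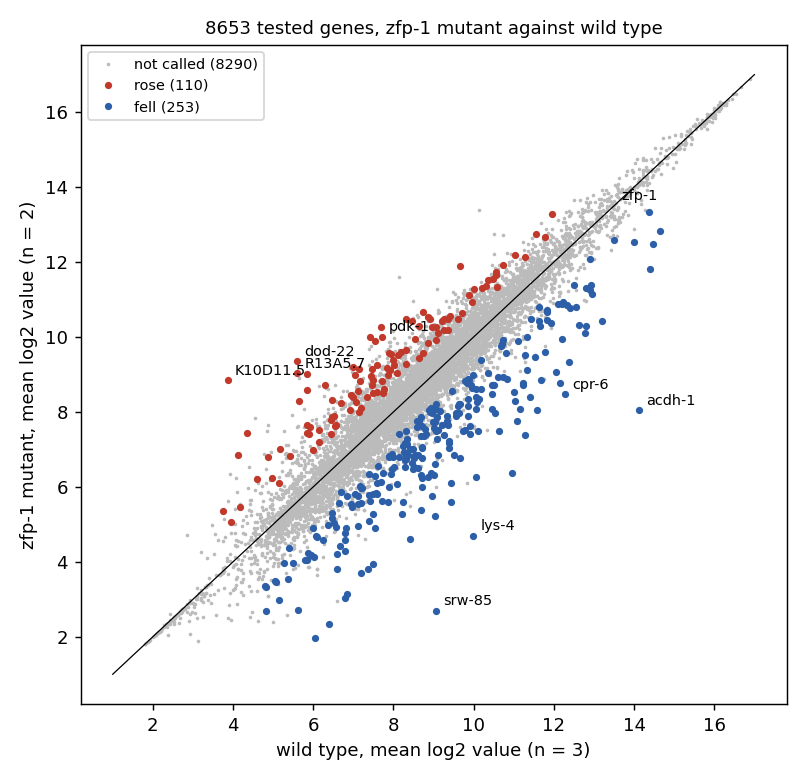
Mean log2 value of each tested gene in the wild type (horizontal axis, 3 samples) and in the zfp-1 mutant (vertical axis, 2 samples), with the 110 genes that rose in red and the 253 that fell in blue (limma adjusted p under 0.05). The line marks equal values; srw-85, acdh-1 and lys-4 lie farthest below it and K10D11.5 farthest above it among the labelled genes, and zfp-1 lies on it.

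The largest fall, which also had the smallest adjusted p, was that of srw-85, a member of the serpentine receptor families through which worms sense chemicals. It read 9.05, 8.93 and 9.24 in the wild type and 2.63 and 2.77 in the zfp-1 mutant, a drop of at least 16.8-fold (limma adjusted p = 2.4e-09). The samples of each group lay close together and the groups far apart. In the other strains its values were 9.48 to 9.64 in the alg-1 mutant, 2.49 to 2.65 in the rde-4 mutant and 9.67 to 9.89 in the lin-35 mutant, so the low level occurred in the zfp-1 and rde-4 strains and not in the other 3. C50B6.7 read 9.44, 9.07 and 9.78 in the wild type and 5.67 and 5.52 in the mutant. That is a fall of 3.83 ± 0.36 (SE, limma adjusted p = 0.00026), while in the other 3 strains its values were between 8.28 and 10.19.

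Other large falls were shared with other strains. F16C3.2 read 7.77, 7.94 and 6.78 in the wild type and 4.16 and 3.72 in the zfp-1 mutant, at least 5.65-fold lower, with an adjusted p of 0.00019 by limma. It lay between 3.8 and 3.83 in all 6 alg-1 and rde-4 samples, and at 7.0 and 6.41 in the lin-35 mutant. W03F9.4 read 7.21, 6.18 and 5.8 in the wild type and 2.32 and 2.39 in the zfp-1 mutant, and it was at least 2.63-fold lower, with an adjusted p of 0.00367 by limma. It was between 2.64 and 2.9 in the alg-1 and rde-4 mutants. C23G10.11 read 10.94, 11.76 and 10.16 in the wild type against 6.47 and 6.25 in the zfp-1 mutant, and it fell by 4.59 ± 0.91 (SE, limma adjusted p = 0.0184). The zfp-1 values of this gene were lower than those of every wild-type sample and, except for 1 alg-1 sample at 6.98, higher than those of the alg-1 and rde-4 samples.

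The zfp-1 replicates lay well apart for T22F3.11 and DH11.2. T22F3.11 read 10.93, 11.45 and 11.47 in the wild type and 6.61 and 8.15 in the zfp-1 mutant, and its change of -3.9 was -3.13 without zfp-1 replicate 1 and -4.67 without replicate 2. DH11.2 read 8.56, 9.44 and 9.08 against 4.54 and 5.89, and its change of -3.81 was -3.14 and -4.48 in the same omissions. The cytochrome P450 gene cyp-35B1, of a family that oxidises foreign compounds and lipids, varied widely in the wild type, at 7.77, 5.75 and 6.84. At 2.62 and 3.44 in the zfp-1 mutant it was at least 3.44-fold lower, with an adjusted p of 0.0471 by limma. Of these 8 genes from srw-85 to cyp-35B1, srw-85, C50B6.7 and F16C3.2 passed again on omission of each of the 5 samples, and the highest adjusted p of the others was 0.279 without zfp-1 replicate 1 and 0.205 without replicate 2.

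The largest rise was that of K10D11.5, at 2.69, 5.89 and 3.03 in the wild type and 9.38 and 8.32 in the zfp-1 mutant. With 2 of 3 wild-type samples below 5, the change was 4.98 ± 0.73 (SE, limma adjusted p = 0.00464), and it was 4.39 without wild-type replicate 1 and 6.0 without replicate 2. All 8 samples of the other mutants also had high values, from 8.26 to 9.13, so the wild type alone was low. dod-22, an intestinal gene whose product carries a CUB-like domain and which responds to insulin signalling and to bacteria, read 5.58, 5.17 and 6.05 in the wild type and 9.13 and 9.58 in the mutant. It rose by 3.76 ± 0.49 (SE, limma adjusted p = 0.00231). In the other strains dod-22 was at 7.39 to 7.85 in the alg-1 mutant, at 4.09 to 5.72 in the rde-4 mutant and at 5.85 and 7.29 in the lin-35 mutant, all below the zfp-1 values.

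R13A5.7 read 5.86, 5.56 and 5.39 in the wild type and 8.88 and 9.19 in the zfp-1 mutant. This rise of 3.43 ± 0.29 (SE, limma adjusted p = 0.00014) was the one that passed again in each of the 27 other fits at the same threshold over the same genes. sysm-1, which encodes a small secreted peptide with a ShK toxin-like domain induced during infection, read 7.28, 5.49 and 4.77 in the wild type and 9.45 and 8.57 in the mutant. It rose by 3.16 ± 0.8 (SE, limma adjusted p = 0.0494), and by 3.88 without wild-type replicate 1. C17H12.8, another CUB-like gene, read 9.06, 10.11 and 9.83 in the wild type and 11.95 and 11.82 in the mutant, and rose by 2.22 ± 0.38 (limma adjusted p = 0.0107).

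**Figure D2:**
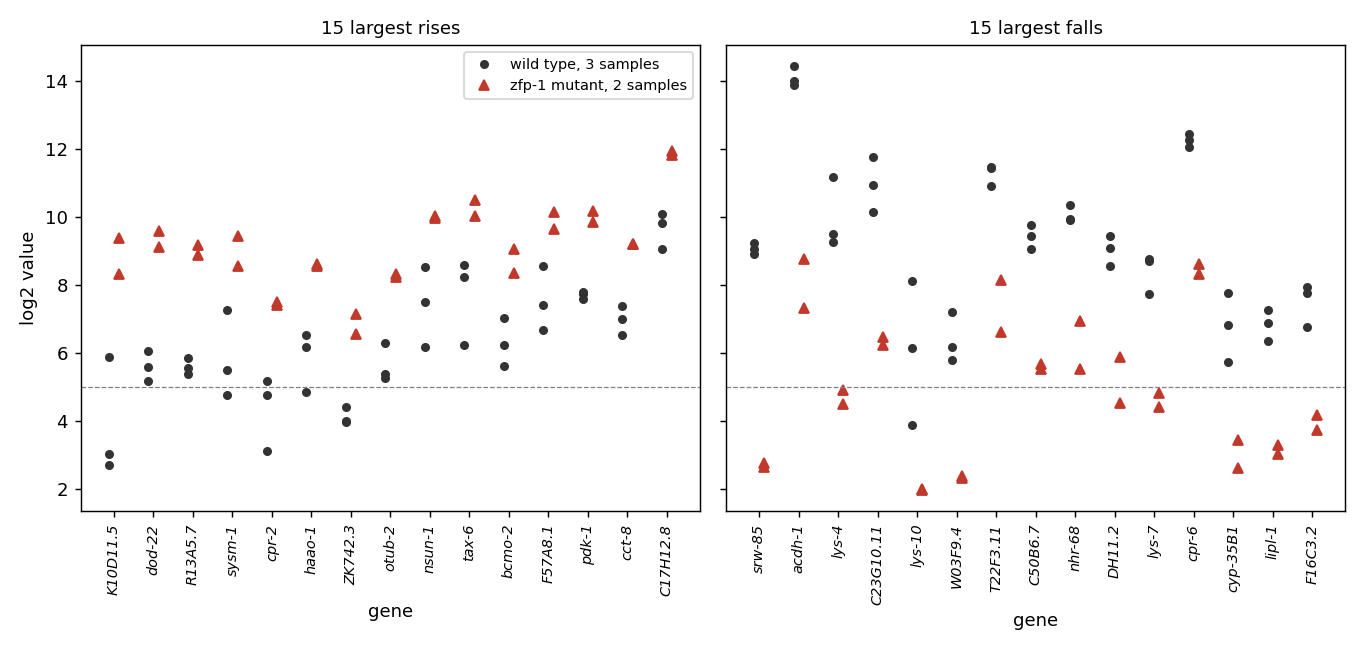
Log2 value (vertical axis) in each of the 3 wild-type samples (black circles) and the 2 zfp-1 samples (red triangles) for the 15 largest rises (left) and the 15 largest falls (right). The dashed line marks a log2 value of 5; for every gene shown both triangles lie beyond all circles, and the wild-type samples of K10D11.5 and lys-10 are spread most widely.

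Among the rises with a known enzyme or signalling role, haao-1, a dioxygenase of the kynurenine pathway that breaks down tryptophan, rose by 2.74, from 4.85, 6.18 and 6.52 to 8.62 and 8.56. otub-2, of the otubain family of deubiquitinating enzymes, rose by 2.65 from 5.25, 5.39 and 6.3 to 8.34 and 8.24. nsun-1, an RNA methyltransferase that acts on ribosomal RNA, rose by 2.6 from 7.5, 6.18 and 8.54 to 9.97 and 10.04. For these 3 genes the wild-type spread was wide, while the zfp-1 samples lay close together. The means in the alg-1, rde-4 and lin-35 mutants were 7.63, 7.94 and 5.6 for haao-1. For otub-2 they were 7.62, 8.34 and 8.34, and for nsun-1 8.62, 9.81 and 9.44.

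tax-6, the catalytic subunit of calcineurin and a regulator of sensory neurons, rose by 2.58, from 8.6, 6.23 and 8.24 to 10.03 and 10.51. Without wild-type replicate 2 this rise was 1.85, and that of nsun-1 was 1.99. bcmo-2, related to enzymes that cleave carotenoids, rose by 2.42 from 7.02, 5.63 and 6.23 to 8.36 and 9.06. F57A8.1 rose by 2.35 from 7.42, 6.69 and 8.55 to 9.66 and 10.15. The adjusted p of the 6 genes from haao-1 to F57A8.1 lay between 0.0165 and 0.047 (limma).

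The kinase gene pdk-1, which activates AKT downstream of the insulin receptor, was tight in both groups. It read 7.8, 7.59 and 7.74 in the wild type and 10.17 and 9.86 in the zfp-1 mutant, a rise of 2.31 ± 0.34 (SE, limma adjusted p = 0.00515). Its values in the other mutants ran from 7.76 to 9.38, between those of the wild type and the zfp-1 mutant but for 1 alg-1 sample at 7.76. Of the 15 largest rises, dod-22 and R13A5.7 passed again on omission of each of the 5 samples, and the highest adjusted p of the 15 was 0.287 without zfp-1 replicate 1 and 0.323 without replicate 2.

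A set of 19 genes, 6 higher and 13 lower, differed the same way from the wild type and from each of the other 3 mutants at an adjusted p of 0.05 in all 4 contrasts (limma, 0.22% of the genes tested). Of the 19, 1 lies on chromosome III, which carries the zfp-1 deletion. Direct contrasts between strains share the zfp-1 samples and are not independent. R13A5.7, the gene named above, was between 4.91 and 6.29 in the 11 other samples, with a smallest difference of 3.4 among the 4 contrasts. ZK742.3 read 3.99, 4.4 and 3.98 in the wild type, 3.38 to 4.66 over all 11 other samples and 6.57 and 7.15 in the zfp-1 mutant, at least 3.63-fold higher than wild type (limma adjusted p = 0.00141). Neither gene overlapped between the zfp-1 mutant and any other sample.

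The cathepsin B-like proteases cpr-2 and cpr-6, enzymes that digest protein in the gut and in lysosomes, lay in opposite directions. cpr-2 read 4.76, 5.19 and 3.12 in the wild type and 7.51 and 7.4 in the zfp-1 mutant, a rise of 3.09 ± 0.51 (SE, limma adjusted p = 0.00903), or 2.48 without wild-type replicate 3. It was between 2.13 and 4.15 in the other mutants, below 5 in all 8 samples. cpr-6 read 12.28, 12.44 and 12.08 in the wild type and 8.63 and 8.32 in the zfp-1 mutant, and fell by 3.79 ± 0.26 (SE, limma adjusted p = 3.7e-05). The alg-1 and rde-4 mutants had intermediate cpr-6 values, 10.11 to 10.48 and 9.17 to 9.99, while the lin-35 mutant stood at 11.96 and 11.86.

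The other 3 rises of this set were smaller. ugt-61, a UDP-glucuronosyltransferase gene of detoxification, rose by 1.54 from 6.76, 6.4 and 6.92 to 7.94 and 8.54. The nuclear hormone receptor gene nhr-132 rose by 1.08 from 6.73, 6.5 and 6.47 to 7.58 and 7.72. M01B2.10 rose by 0.94, from 7.89, 8.26 and 8.12 to 9.09 and 8.97. In all 3 genes every alg-1 sample lay below every wild-type sample, on the other side from the zfp-1 mutant.

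Among the 13 falls were genes of the nervous system. ncam-1, the worm relative of neural cell adhesion molecules, read 8.66, 8.76 and 8.66 in the wild type, 8.38 to 9.57 over all 11 other samples and 6.8 and 5.83 in the zfp-1 mutant. It fell by 2.38 ± 0.32 (SE, limma adjusted p = 0.0025). vab-8, a kinesin-like protein needed for posteriorly directed cell migration and axon growth, read 9.03, 9.16 and 9.04 in the wild type and 7.24 and 7.32 in the mutant, and fell by 1.8 ± 0.34 (limma adjusted p = 0.0165). Another probe set of vab-8 changed by -1.34 and did not pass (limma adjusted p = 0.3). malt-1, the worm paracaspase, a protease related to a mammalian immune signalling protein, fell by 1.84 ± 0.24 from 8.63, 8.67 and 8.1 to 6.64 and 6.62 (limma adjusted p = 0.00242). In all 3 genes the zfp-1 samples were below each of the other 11.

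The remaining falls of the set included the neighbouring genes E04F6.8 and E04F6.9 on chromosome II. E04F6.8 fell by 3.34, from 10.12, 9.45 and 8.72 to 6.27 and 5.92, and E04F6.9 fell by 3.15, from 10.24, 11.3 and 10.35 to 7.97 and 6.99. Y53H1B.2 fell by 3.32, from 11.98, 10.89 and 10.42 to 7.94 and 7.61. T19B10.2 fell by 2.57, from 10.87, 10.62 and 10.14 to 8.0 and 7.96. Each of these 4 genes also stood below every sample of the other mutants.

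F19F10.3 read 6.35, 7.49 and 6.56 in the wild type and 4.55 and 4.59 in the zfp-1 mutant, at least 3.48-fold lower. moc-5, named for the synthesis of the molybdenum cofactor, read 5.8, 5.2 and 5.14 against 3.36 and 3.73, at least 1.3-fold lower. The transthyretin-like gene ttr-51 fell by 1.74, from 11.33, 11.36 and 11.13 to 9.12 and 9.95, and T03D8.6 fell by 1.15, from 8.23, 8.25 and 8.21 to 7.16 and 7.0. The highest of the 4 adjusted p was 0.0285 for moc-5, 0.029 for ttr-51, 0.0383 for T03D8.6 and 0.0389 for F19F10.3 (limma). On omission of each of the 5 samples in turn 9 of the 19 passed again against the wild type, with 9 and 11 passing without zfp-1 replicates 1 and 2. As a set against all 4 strains, 3 and 4 of the 19 passed again in those omissions.

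**Figure D3:**
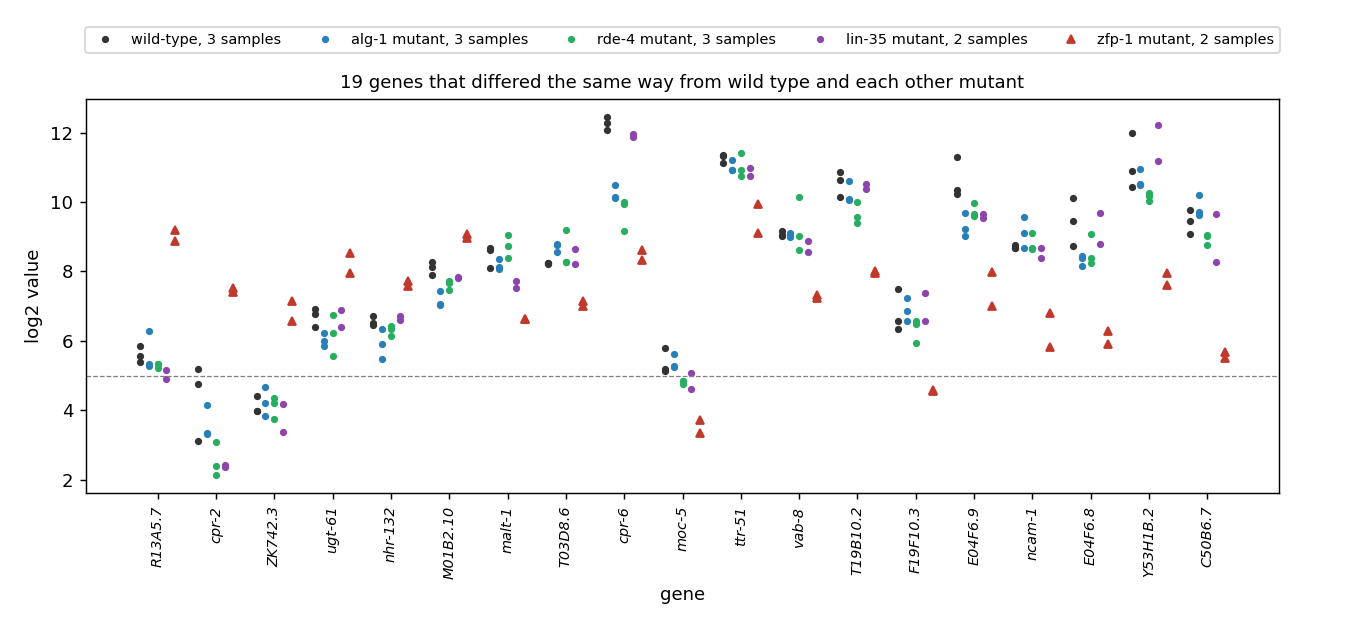
Log2 value (vertical axis) of each of the 13 samples for the 19 genes that differed in the zfp-1 mutant (red triangles) the same way from the wild type and each other mutant (circles). The 6 rises are on the left, ordered by their smallest difference, and the 13 falls on the right; the triangles lie outside the circles for every gene, and the dashed line marks a log2 value of 5.

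Among 19 gut proteases tested, 3 fell and 1 (cpr-2) rose, with a median change of -0.21. For this list and those below, the shares over all tested genes were 1.27% rose and 2.92% fell. cpr-4, a cathepsin B-like protease, fell by 2.31 ± 0.34 (SE), from 12.38, 13.08 and 12.44 to 10.11 and 10.53, and cpz-1, a cathepsin Z-like protease, fell by 2.88 ± 0.51, from 10.01, 9.73 and 9.25 to 6.72 and 6.85. Lower cpr-4 values occurred in the rde-4 mutant, at 8.5 to 9.68. Of 22 further lysosomal enzymes, a list drawn up after the values were seen, 5 fell and 0 rose, with a median of -0.52. They included the legumain gene lgmn-1 at 11.29, 10.85 and 10.38 against 8.92 and 8.83, the alpha-galactosidase and N-acetylgalactosaminidase gene gana-1 at 8.98, 8.45 and 8.1 against 7.05 and 6.47, and the acid sphingomyelinase gene asm-1 at 8.09, 7.75 and 7.26 against 6.19 and 6.08.

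Lysozymes break down bacterial cell walls. The lysozyme gene lys-4 read 9.51, 11.18 and 9.27 in the wild type and 4.92 and 4.49 in the zfp-1 mutant, a difference of at least 31.7-fold with an adjusted p of 0.00436 by limma. Its fitted change of -5.28 was -4.69 without wild-type replicate 2. lys-7 read 7.73, 8.7 and 8.78 against 4.42 and 4.81, at least 10.6-fold lower (0.0153 by limma, adjusted). Both were well separated from the wild type, but lys-4 was also at 4.85 to 7.43 in the alg-1 and rde-4 mutants and lys-7 at 3.45 to 4.75 in the rde-4 mutant. lys-10 was at least 2.06-fold lower, with 3.87, 8.12 and 6.15 in the wild type and 2.0 and 1.97 in the mutant, and all alg-1 and rde-4 samples lay between 1.98 and 2.0. The bound for lys-10 was 4.39-fold without wild-type replicate 1 and 1.0-fold without replicate 2. Without replicate 2 or 3 lys-10 did not reach the level for testing.

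The invertebrate-type lysozyme gene ilys-5 fell by 2.5, from 12.01, 13.51 and 12.85 to 10.61 and 9.98, and spp-15, of the saposin-like family that includes antimicrobial peptides, fell by 1.71, from 9.04, 9.75 and 9.25 to 7.92 and 7.35. In all, 5 of 32 antimicrobial genes tested fell and 0 rose. Their median was -0.73, and the median of the zfp-1 mean minus single wild-type samples was -1.03, -0.87 and -0.36 for replicates 1, 2 and 3. Of 44 C-type lectins, sugar-binding proteins with roles in immunity, 4 fell and 0 rose (median -0.26). clec-76 fell by 3.51, from 11.23, 11.88 and 11.61 to 7.7 and 8.42. clec-72 fell by 2.56, from 8.83, 8.74 and 9.24 to 5.57 and 7.18, with a change of -1.76 without zfp-1 replicate 1 and -3.36 without replicate 2.

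Of 13 intestinal markers tested out of 14 with a probe set, 3 fell and 0 rose, and all 13 reached 5 in every sample of both groups. Their median change was -0.29, with 3 positive changes. The sum of log2 values over the 14 was 141.6 to 144.3 in the wild type and 132.6 to 132.8 in the mutant. That sum includes the 3 falls, of 3.79 (cpr-6), 2.65 (ftn-1) and 1.74 (ges-1), so it does not show a loss across the list. Besides cpr-6, the falls were ftn-1, an iron-storing ferritin, at 10.57, 10.62 and 9.18 against 7.79 and 7.16, and ges-1, a gut esterase, at 8.29, 8.58 and 7.98 against 6.21 and 6.87. The change of ftn-1 was -2.65, and it was -1.7 against wild-type replicate 3 alone. The part of the amount of intestine in the changes of the gut genes was not tested.

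Among bestrophin chloride channels, a list drawn up after the values were seen, 3 of 13 fell and 0 rose (median -0.24). best-1 fell by 3.08 ± 0.48 (SE), from 11.44, 11.15 and 10.86 to 7.91 and 8.22. Of 29 transthyretin-like genes, a large worm family of small secreted proteins, 4 fell and 0 rose, and 3 had a positive change, with a median of -0.74. Against single wild-type replicates the median of the family was -0.95, -0.72 and -0.42. ttr-2 fell by 1.15, from 11.79, 11.83 and 11.86 to 10.72 and 10.63, and ttr-6 fell by 1.11, from 11.9, 11.96 and 11.66 to 10.73 and 10.71. Of the 24 digestive, defence, bestrophin and transthyretin-like falls examined one by one, cpr-6 and clec-76 passed again on omission of each of the 5 samples. The highest adjusted p among the 24 was 0.248 without zfp-1 replicate 1, 0.294 without replicate 2 and 0.133 without wild-type replicate 2 (limma).

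Over a list of propionate breakdown genes 4 of 19 fell and 0 rose, with a median of -0.19. The propionate shunt breaks down propionyl-CoA when the vitamin B12-dependent pathway is short of its cofactor. The acyl-CoA dehydrogenase gene acdh-1 read 13.9, 14.01 and 14.46 in the wild type and 7.32 and 8.78 in the zfp-1 mutant, and fell by 6.07 ± 1.15 (SE, limma adjusted p = 0.0165). In the other strains it was at 2.46 to 3.52 in the alg-1 mutant, at 10.61 to 14.35 in the rde-4 mutant and at 13.39 and 9.44 in the lin-35 mutant. nhr-68, a nuclear hormone receptor that switches the shunt on, read 9.91, 9.95 and 10.36 against 5.54 and 6.95, and fell by 3.83 ± 0.75 (SE, limma adjusted p = 0.0179). Without zfp-1 replicates 1 and 2 the changes were -5.34 and -6.81 for acdh-1 and -3.12 and -4.53 for nhr-68.

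hphd-1, the oxidoreductase of the shunt, fell by 3.04, from 12.3, 12.21 and 12.64 to 8.95 and 9.72. ech-6, an enoyl-CoA hydratase, fell by 1.54, from 12.67, 12.79 and 13.31 to 11.17 and 11.6. dhgd-1, the dehydrogenase that clears the D-2-hydroxyglutarate made by the shunt, fell by 2.51, from 9.58, 9.95 and 10.23 to 6.98 and 7.85. In these 3 genes, as in acdh-1 and nhr-68, zfp-1 replicate 1 was lower than replicate 2. The means in the alg-1, rde-4 and lin-35 mutants were 5.75, 9.77 and 8.28 for nhr-68. For hphd-1 they were 7.68, 10.47 and 9.75, and for ech-6 11.03, 12.75 and 12.34.

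Of 29 genes of the glyoxylate cycle, gluconeogenesis and glycolysis, 2 fell and 0 rose, with a median of 0.04. icl-1, the bifunctional glyoxylate cycle enzyme, read 12.75, 12.55 and 13 in the wild type and 9.17 and 11.03 in the mutant. adh-1, an alcohol dehydrogenase, read 14.51, 14.64 and 14.04 against 11.24 and 12.41. The fall was 2.67 in icl-1 (limma adjusted p = 0.0113) and 2.57 in adh-1 (limma adjusted p = 0.00231). The means in the alg-1, rde-4 and lin-35 mutants were 10.01, 9.72 and 11.41 for icl-1. For adh-1 they were 12.53, 10.01 and 13.76. The zfp-1 replicates differed by more than 1 log2 unit in both genes: without replicates 1 and 2 the changes were -1.74 and -3.59 for icl-1 and -1.98 and -3.16 for adh-1.

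Of 27 lipases, lipid-binding proteins and desaturases, 5 fell and 0 rose (median -0.22). lipl-1, a lysosomal lipase induced in fasting, read 6.34, 7.27 and 6.88 in the wild type and 3.02 and 3.29 in the mutant, at least 3.55-fold lower (limma adjusted p = 0.00014). It was at 3.6 to 3.79 in the alg-1 mutant, 2.83 to 3.75 in the rde-4 mutant and 6.11 and 5.99 in the lin-35 mutant. Its relatives lipl-2 and lipl-7 fell by 2.1 and fell by 1.76; lipl-7 read 8.13, 8.89 and 8.78 against 6.75 and 6.94, below every sample of the other mutants. The secreted fatty acid-binding genes lbp-1 and lbp-2, which are neighbours on X, fell by 2.0 and fell by 1.31, with lbp-1 at 10.8, 10.72 and 9.87 against 8.16 and 8.77. In the alg-1, rde-4 and lin-35 mutants the lbp-1 means were 8.23, 8.56 and 10.63, while the zfp-1 values of lbp-2 lay below every other sample. Of 36 fatty acid breakdown genes hacd-1, a hydroxyacyl-CoA dehydrogenase, fell by 2.65 and acs-11, an acyl-CoA synthetase, fell by 1.4, and 0 rose (median -0.19). Those 2 falls stand beside 2.92% of all tested genes that fell. The hacd-1 means in the zfp-1, alg-1, rde-4 and lin-35 mutants were 6.86, 7.99, 7.1 and 8.79. For acs-11 they were 4.97, 4.67, 4.72 and 5.65. Of the fatty acid and retinol-binding family, far-2 fell by 1.21 and far-7 fell by 2.84. Among the 16 metabolic genes from acdh-1 to far-7, adh-1, lipl-1 and lipl-7 passed again on omission of each of the 5 samples. The highest adjusted p of the 16 was 0.281 without zfp-1 replicate 1 and 0.113 without wild-type replicate 2 (limma).

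In the insulin pathway, pdk-1 was the 1 gene of 14 core members that passed (median -0.02). Among 17 genes downstream of the pathway's transcription factor DAF-16, dod-3 and icl-1 fell and 0 rose. dod-3 fell by 2.37 ± 0.31 (SE, limma adjusted p = 0.00233), from 10.47, 10.84 and 10.06 to 8.02 and 8.15. Of 18 CUB-like and dod genes of the intestinal response 2 rose and 0 fell. Their median change was 0.47, with 13 positive changes and a lowest value of -1.47. That median kept its size against single wild-type samples, at 0.64, 0.51 and 0.55. In the other mutants the median of this list was 1.15 (alg-1), 0.27 (rde-4) and 0.69 (lin-35).

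Of 124 nuclear hormone receptors, a family expanded in worms, 3 rose and 7 fell (median -0.11), against 1.27% and 2.92% of all tested genes. nhr-101 fell by 2.16, from 9.32, 9.73 and 9.13 to 7.48 and 6.99. nhr-137 fell by 1.54, from 8.38, 8.2 and 8.25 to 6.59 and 6.88, and nhr-19 fell by 1.66, from 10.75, 9.72 and 9.68 to 8.22 and 8.56. The others that fell besides nhr-68 were nhr-21, nhr-44 and nhr-99, by 1.31, 1.19 and 1.16. nhr-161 rose by 1.6, from 5.51, 5.7 and 6.32 to 7.21 and 7.67, and nhr-131 rose by 0.91, from 7.31, 6.97 and 7.31 to 8.2 and 8.01. The nhr-131 values lay above those of all 11 other samples.

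Detoxification genes went both ways. Of 28 cytochrome P450 genes 1 rose and 2 fell (median -0.39), and of 66 glutathione and UDP-glucuronosyl transferases 2 rose and 0 fell (median -0.08). cyp-36A1, which acts in the hypoxia response of the worm, rose by 1.13, from 7.19, 6.76 and 6.8 to 8.4 and 7.69. cyp-32A1 fell by 1.89, from 8.31, 8.26 and 7.07 to 6.34 and 5.64, and ugt-22 rose by 1.22, from 9.33, 8.93 and 9.38 to 10.35 and 10.51. The ugt-22 means were 10.34, 10.59 and 9.52 in the alg-1, rde-4 and lin-35 mutants. The change of cyp-32A1 was -1.08 against wild-type replicate 3 alone. Another probe set of cyp-32A1 changed by -0.55 and did not pass (limma adjusted p = 0.227). Of the 18 insulin, receptor and detoxification genes that passed, dod-3 and dod-22 passed again on omission of each of the 5 samples, with a highest adjusted p of 0.289 without zfp-1 replicate 1 and 0.334 without replicate 2 (limma).

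Of 73 neuropeptide genes tested, 10 fell and 0 rose. Their median was -0.46, and 8 of the 73 had a positive change. The median against single wild-type samples was -0.6, -0.57 and -0.2. In the other mutants the median of this list was -0.3 (alg-1), -0.78 (rde-4) and -0.22 (lin-35). flp-12, an FMRFamide-like peptide gene, fell by 2.46 ± 0.38 (SE, limma adjusted p = 0.00613), from 11.25, 11.22 and 10.54 to 8.68 and 8.4. flp-21, a ligand of the receptor NPR-1 that shapes feeding aggregation, fell by 2.93 ± 0.59 (limma adjusted p = 0.0203), from 7.74, 8.63 and 8.26 to 5.29 and 5.27. nlp-50 fell by 1.63 ± 0.23 (limma adjusted p = 0.00367), from 12.83, 13.23 and 12.6 to 11.24 and 11.28. In each of these 3 genes the mutants of the other strains also had samples below all wild-type samples.

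nlp-10 fell by 1.32, from 12.11, 12.31 and 12.21 to 11.05 and 10.73, and snet-1, a peptide gene acting with neprilysin in olfactory plasticity, fell by 1.47, from 12.42, 12.54 and 11.99 to 10.85 in both mutant samples. nlp-27 and nlp-30, antimicrobial peptide genes of the epidermis that carry a neuropeptide name, fell by 1.71 and fell by 1.79. flp-9, nlp-7 and nlp-101 completed the 10, with changes of -0.92, -1.37 and -1.25. The peptidase gene nep-1, a neprilysin that degrades neuropeptides, fell by 1.94, from 8.98, 8.97 and 8.16 to 7.15 and 6.38. Another probe set of nep-1 changed by -0.84 and did not pass (limma adjusted p = 0.289).

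Of 33 synaptic vesicle release genes 0 passed (median 0.25), and of 13 neuron markers 0 passed, with a median of 0.08. The sum of log2 values over the neuron list was 140.1 to 141.8 in the wild type and 141.4 to 142.1 in the zfp-1 mutant. Of 37 ligand-gated channel subunits lgc-39 fell, by 0.88, from 8.63, 8.67 and 8.6 to 7.71 and 7.8, while 2.92% of all tested genes fell. Of 49 chemoreceptors tested out of 1323 with a probe set, 3 fell and 0 rose: srw-85, srlf-37, which was at least 5.16-fold lower, and srh-271, which was at least 3.53-fold lower.

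The soluble guanylate cyclase genes gcy-32 and gcy-36, of the oxygen-sensing neurons URX, AQR and PQR, were 2 falls among 5 guanylate cyclases, a list drawn up after the values were seen. gcy-36 fell by 1.48, from 6.33, 6.51 and 6.71 to 5.33 and 4.74, and gcy-32 was at least 1.54-fold lower, at 4.43, 5.96 and 6.47 against 2.75 and 2.67, or at least 2.33-fold without wild-type replicate 1. Both were also low in the lin-35 mutant, at 4.13 and 5.04 for gcy-36 and at 2.86 and 3.47 for gcy-32. So were 3 further genes, chosen after their values were seen. dma-1, a receptor that shapes sensory dendrites, fell by 1.73, from 7.41, 7.91 and 7.35 to 5.84 and 5.82, with 5.04 and 5.17 in the lin-35 mutant. egl-46, a zinc finger factor of neuronal differentiation, fell by 2.22, from 7.19, 8.03 and 7.29 to 5.49 and 5.07, with 4.53 and 5.0 in the lin-35 mutant. tmem-231, a protein of the ciliary transition zone, fell by 2.62, from 7.18, 7.87 and 7.56 to 4.58 and 5.24, with 5.79 and 5.6 in the lin-35 mutant. The alg-1 and rde-4 samples of dma-1, egl-46 and tmem-231 lay between 7.23 and 8.43. Of 19 neuronal genes named here other than srw-85, ncam-1, vab-8 and tax-6, dma-1 and tmem-231 passed again on omission of each of the 5 samples, and the highest adjusted p was 0.221 without zfp-1 replicate 1 and 0.334 without replicate 2 (limma).

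Mitochondrial ribosomal proteins, which translate the mitochondrial genome, had a median of 0.58, and 53 of 54 tested had a positive change, against 4273 of the 8653 genes overall. Of the 54, 4 rose and 0 fell. In the other mutants the median of this list was 0.21 (alg-1), 0.75 (rde-4) and 0.14 (lin-35). mrpl-15 rose by 1.93, from 8.46, 8.42 and 9.35 to 10.68 and 10.66. mrps-26 rose by 1.93, from 4.52, 5.1 and 4.99 to 6.76 and 6.83, and mrps-12 and mrpl-2 rose by 1.1 and 0.95. The summed level of the list was 516.0 to 537.0 in the wild type and 557.8 to 559.0 in the zfp-1 mutant, and the median against single wild-type samples was 0.71, 0.67 and 0.32.

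Of 61 cytosolic ribosomal proteins tested 0 passed, their changes ran from -0.16 to 0.22, and the median was -0.01. Among 25 translation initiation factors, a list drawn up after the values were seen, 4 rose and 0 fell (median 0.74). The median of these factors against the wild type was 0.5 in the alg-1, 0.79 in the rde-4 and 0.43 in the lin-35 mutant. eif-3.F rose by 1.19, from 11.82, 11.29 and 11.53 to 12.78 and 12.7. eif-6, which keeps the large ribosomal subunit free, rose by 1.2, from 10.82, 10.42 and 10.94 to 11.9 and 11.95. eif-3.B and eif-3.J rose by 1.26 and 1.17. Other probe sets of eif-3.F and eif-6 changed by 1.02 and 1.4 and did not pass (limma adjusted p = 0.205 and 0.0541). Of 31 aminoacyl-tRNA synthetases mars-1, which charges methionine tRNA, rose by 1.05 (median 0.38), and of 39 respiratory chain genes nuo-1 of complex I rose by 0.85 (median 0.17). The synthetase median was 0.23 in the alg-1, 0.65 in the rde-4 and 0.19 in the lin-35 mutant.

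The CCT chaperonin folds actin and tubulin. All 8 subunits had a positive change, with a median of 0.74, in another list drawn up after the values were seen. The CCT median was 0.58 in the alg-1, 0.81 in the rde-4 and 0.48 in the lin-35 mutant. cct-8 rose by 2.24 ± 0.35 (SE, limma adjusted p = 0.00622), from 7.01, 6.54 and 7.38 to 9.22 and 9.2, and cct-6 rose by 0.89, from 11.68, 11.69 and 11.93 to 12.72 and 12.6. Another probe set of cct-6 changed by 0.62 and did not pass (limma adjusted p = 0.257). Of 43 heat shock genes the DNAJ co-chaperones dnj-9 and dnj-11 rose by 1.32 and 1.1 and the small heat shock gene hsp-12.1 was at least 1.92-fold lower (list median 0.34). DNA replication genes had a median of 0.27, and mcm-4, of the replicative helicase, was the 1 of 40 that passed, at 9.52, 10.09 and 10.29 against 10.75 and 11.12. mdf-2, the spindle checkpoint protein MAD2, was the 1 of 54 cell cycle genes that passed, with a rise of 1.7 from 7.45, 6.82 and 8.09 to 9.08 and 9.22. The mdf-2 means were 9.08, 9.07 and 10.19 in the alg-1, rde-4 and lin-35 mutants.

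Of the 16 growth-related genes named, 0 passed again when either zfp-1 replicate was left out, and 5, 3 and 16 when wild-type replicates 1, 2 and 3 were, and their highest adjusted p was 0.255 and 0.373 without zfp-1 replicates 1 and 2 (limma). Set against wild-type replicate 3 alone mrpl-15 was higher by 1.32 and mdf-2 by 1.06, and 0 of the 16 passed. The median of the DNA replication list was 0.04 against wild-type replicate 3 alone.

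**Figure D4:**
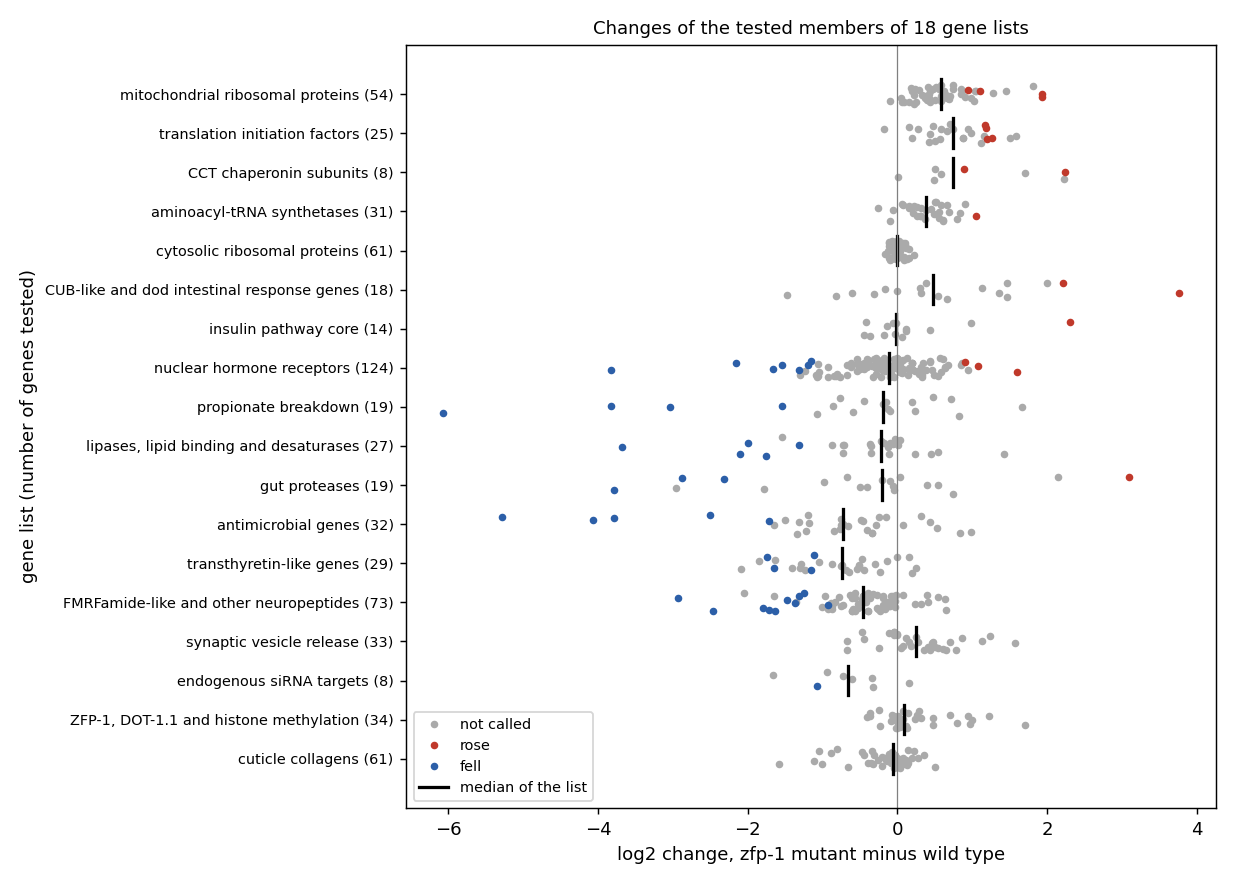
Log2 change in the zfp-1 mutant minus the wild type (horizontal axis) of each tested member of 18 gene lists, with rises in red, falls in blue, genes that did not pass in grey and the list median as a black bar. Mitochondrial ribosomal proteins lie to the right of 0 in 53 of 54 cases, cytosolic ribosomal proteins cluster around 0, and the blue points of the gut, metabolic and neuropeptide lists reach far to the left.

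**Figure D5:**
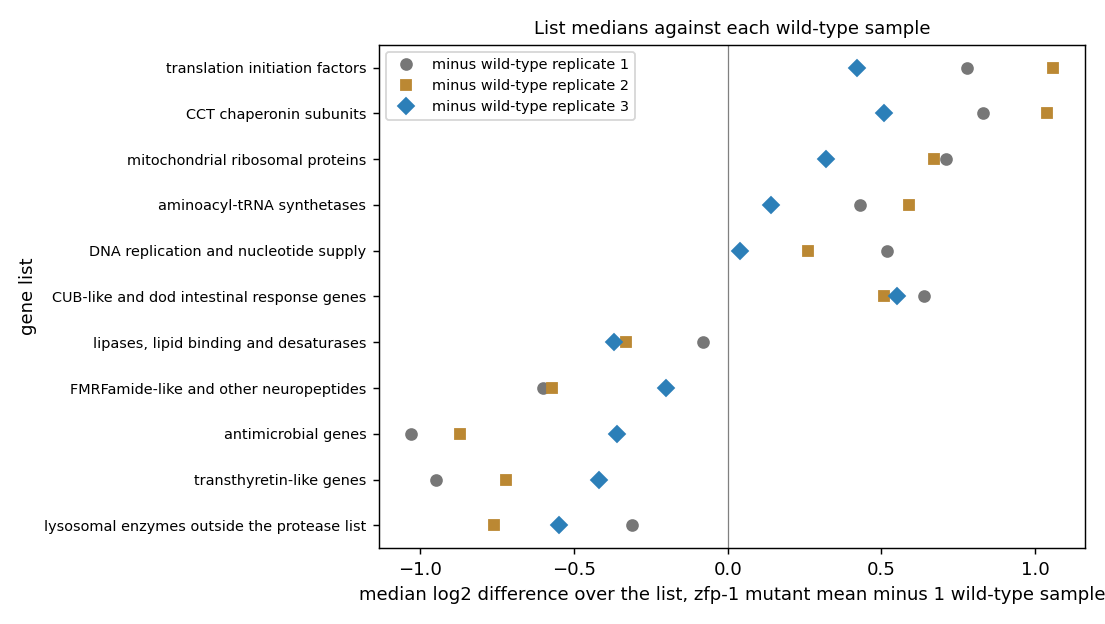
Median over a gene list of the zfp-1 mean minus a single wild-type sample (horizontal axis, log2), for wild-type replicates 1, 2 and 3. The medians against replicate 3 lie closest to 0 for the translation, chaperonin, neuropeptide, antimicrobial and transthyretin-like lists, at 0.32 for mitochondrial ribosomal proteins and -0.42 for transthyretin-like genes, and the sign is the same against all 3 in the 11 lists shown.

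For chromatin genes, the group to which ZFP-1 belongs, 0 of 34 members of the ZFP-1, DOT-1.1 and histone methylation list passed (median 0.09). 0 of 39 chromatin remodelling, DREAM and Mediator genes passed (median 0.26), and 0 of 18 transcription elongation genes (median 0.41). The limma test left 1906 genes at an unadjusted p under 0.05 over the whole table, so a list with 0 calls is not shown to be unchanged. Among 27 core and linker histones hil-7, a linker histone, fell by 1.76 from 12.87, 12.94 and 11.86 to 11.24 and 10.34 (median -0.33), and set against wild-type replicate 3 alone the change was -1.07.

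Of 47 RNAi genes vsra-1, an Argonaute gene, fell by 0.81, from 8.29, 8.21 and 8.45 to 7.54 and 7.46 (limma adjusted p = 0.0302). It was at 10.28 and 10.23 in the lin-35 mutant. This 1 fall among 47 stands beside 2.92% of all tested genes that fell. Of 8 endogenous siRNA targets tested W04B5.1 fell by 1.08, from 7.0, 6.78 and 6.74 to 5.65 and 5.87 (limma adjusted p = 0.0119). That list had a median of -0.66, with 1 of 8 changes positive, and the median was -0.53, -0.7 and -0.55 against single wild-type samples. Another probe set of W04B5.1 changed by -0.29 and did not pass (limma adjusted p = 0.366). None of hil-7, vsra-1 and W04B5.1 passed again on omission of each of the 5 samples, with a highest adjusted p of 0.252 without zfp-1 replicate 2 (limma).

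Lists of tissues and stages other than the intestine held 0 calls: 11 body wall muscle markers (median 0.16), 8 pharynx markers (0.02), 9 hypodermis and seam markers (-0.01), 7 germ line markers (-0.05), 61 cuticle collagens (-0.06), 19 molting genes (-0.05) and 16 heterochronic genes (0.46). The pharynx median was -0.91 against wild-type replicate 1 and 0.45 and 0.55 against replicates 2 and 3. Markers of sperm and coelomocytes were below the level for testing. Of the 7 germ line markers, 1 stayed at or above 5 throughout the wild type and 2 throughout the zfp-1 mutant. The median lin-35 minus wild-type difference of that list was 7.05. With most of its genes dim in both groups compared here, the germ line list cannot show whether they changed. As 4.2% of all tested genes were called, 0 calls in lists of 7 to 19 genes do not set those lists apart from the intestine.

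By chromosome, the share of tested genes that fell was 4.6% on V and 3.88% on X, and between 1.66% and 2.52% on I, II, III and IV. The share that rose was 0.698% on X and between 1.23% and 1.66% on the autosomes. Chromosome III, with the deleted gene, did not stand out in either share, at 2.26% and 1.23%. Among 4844 pairs of adjacent tested genes 12 had both members called, and in 11 of them both fell. Of all tested genes 4.2% were called and 2.92% fell, and whether 12 pairs exceed what those shares give was not tested. Besides E04F6.8 with E04F6.9 and lbp-1 with lbp-2, the 11 included ftn-1 with F19F10.3, far-7 with K01A2.10 and C50F4.8 with C50F4.9, the last at changes of -2.2 and -2.3. The remaining pair, osta-2 and tiar-1, had changes of -0.83 and 0.94.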

How the data were processed

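The authors labelled 5 microgram of total RNA per sample with biotin and, per the submitters' processing notes, made the values with GCRMA, which combines a background correction by probe base composition with normalisation across arrays and 1 value per probe set. The sources used here do not state its version or settings. The deposited log2 values ran from 1.42 to 17.0. Arrays have no read depth, and their number limits the precision.

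Of 22625 probe sets, 77 controls were left out and 20766 had exactly 1 gene in the annotation. The 887 with several genes and the 895 not listed were set aside. Of those with 1 gene, 20701 matched RefSeq (WBcel235), used for names, chromosomes and neighbours only, since the labels name no genome build. For the 2981 of 17118 genes with several probe sets the brightest over all samples was kept. Among called genes, 52 had 57 other bright probe sets, of which 0 had the opposite sign. Not all of the 57 passed, and some changed less than the kept probe set. For zig-7 the other probe set changed by -0.83 (limma adjusted p = 0.108) against -1.68. Others passed, such as pdk-1 at 3.91 (limma adjusted p = 0.0198) and ncam-1 at -1.67 (limma adjusted p = 0.00177).

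The replicate arrays of a sample were averaged, and 1 model over all 13 samples of 5 groups was fitted (limma 3.58.1, R 4.3.3, lmFit and eBayes, 8 residual and 3.49 prior degrees of freedom, median residual SD 0.32). Tests were two-sided, with Benjamini-Hochberg adjustment over 8653 genes and a threshold of 0.05. SE is limma's standard error. Replicates are described as separately grown populations. A group wholly below 5 gives a fold against 5 as a bound. Gene lists (52, with 7 more drawn up after the values were seen, 722 names with 51 unmatched) are described by counts and medians. The genes and lists were chosen with earlier results of these data known.

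Named by rule were zfp-1, the 15 largest rises and 15 largest falls, up to 4 called members per list by adjusted p, and up to 8 genes each way that differed from all 4 strains. Every other gene named was chosen after its values were seen. Promoter and protein sequences were not used here. On simulated data with 8653 genes and 200 changed, limma recovered 42% of log2 changes of 1 and 80% of changes of 2 for this comparison, with 4 false calls. The simulated noise was independent between genes, with 1 SD per gene in all groups. It lacked the uneven spread of the real wild-type samples, so these rates need not hold for the real data. Alternatives covered scaling, filters, array handling, the model and the omission of each sample. The count of genes beyond all 11 other samples was repeated under other settings chosen after seeing the data. Figures were drawn with matplotlib 3.10.9.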

Additional observations from a re-analysis of the deposited data

Results flagged for a closer look

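In 10 genes the zfp-1 mutant and another mutant both differed from the wild type in opposite directions, and the direct contrast between the mutants passed as well (limma adjusted p under 0.05 in all 3). These contrasts share samples. Against the lin-35 mutant the largest such difference was that of srw-85, at -7.08, where the zfp-1 samples read 2.63 and 2.77 and the lin-35 samples 9.89 and 9.67. F43C11.7 differed by -4.33, with 7.02, 7.08 and 6.29 in the wild type, 4.32 and 4.28 in zfp-1 larvae and 8.51 and 8.74 in lin-35 larvae. The Argonaute gene vsra-1 differed by -2.75 between the same strains. Y54G11A.4 differed by -3.01, C07E3.9 by -2.72, txt-3 by -2.55 and Y51F10.7 by -1.76, each below the wild type in zfp-1 larvae and above it in lin-35 larvae. Both zfp-1 samples lay below 5 for srw-85, F43C11.7 and txt-3, so the sizes of these differences are not exact. cpr-2 went the other way, with the zfp-1 mutant higher by 5.06 than the lin-35 mutant and by 4.92 than the rde-4 mutant. All lin-35 and rde-4 samples of cpr-2 lay below 5, as did 2 of 3 wild-type samples. The sizes are therefore not exact, and the place of these 2 mutants below the wild type is not reliable.

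lron-9, named for leucine-rich repeats, read 8.15, 8.51 and 8.39 in the wild type against 7.07 and 7.21 in zfp-1 larvae, 9.26, 9.74 and 9.12 in the alg-1 mutant and 9.41, 9.32 and 9.97 in the rde-4 mutant. The zfp-1 mutant differed from alg-1 by -2.23 and from rde-4 by -2.43. M01B2.10 was higher in the zfp-1 mutant than in the alg-1 mutant by 1.86. The 19 genes that differed from all 4 strains in the same direction are described in the report.

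Among the probe sets set aside because the annotation gives them several genes or none, 499 of 1782 were bright enough to be tested, and for 26 of these (5.21%) both zfp-1 samples lay beyond all 11 other samples. For 3 of the 26 the change also exceeded 2. Probe set 184707_s_at read 3.44, 3.07 and 3.11 in the wild type and 10.97 and 10.11 in the zfp-1 mutant, a change of 7.34. Its values in the other mutants ran from 3.38 to 9.52, so the wild type was low in every sample and the others varied. Probe sets 178799_at and 180813_s_at changed by -3.28 and -2.81. Each of the 3 lists 2 genes, so none is named, and none was tested.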

How the results depend on the processing

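No called gene changed sign in any of the alternative fits. For the omissions and for wild-type replicate 3 alone this was fixed beforehand, as both zfp-1 samples lay beyond all 3 wild-type samples. Of 2569 results of named genes under alternatives, 2078 kept their call and 491 lost it. The 110 rises and 253 falls became 44 and 123 without a filter on dim genes, 582 and 667 with the 15 arrays taken as independent, 34 and 113 with the zfp-1 mutant and wild type fitted alone, 5 and 14 against wild-type replicate 3 alone, 14 and 66 at an adjusted p of 0.01 and 339 and 482 at 0.1. With the replicate number as a block, 407 rose and 449 fell. The labels do not say whether equal numbers mark samples handled together. Residuals correlated at 0.227 for wild-type and zfp-1 replicates 1 and -0.147 for replicates 2. With 2 zfp-1 samples the residuals of 1 mirror those of the other, so these values cannot decide whether the replicates were paired. On omission of 1 sample in turn, over all 5 strains, the rises ranged from 4 to 429 and the falls from 41 to 422, with the lowest counts without a zfp-1 replicate and the highest without wild-type replicate 3. The 6 genes higher and 13 lower than all 4 strains ranged over the same omissions from 1 to 8 and from 3 to 11. They became 10 and 3 without a filter, 20 and 38 with 15 independent arrays, 3 and 5 against wild-type replicate 3 alone, 3 and 3 at an adjusted p of 0.01 and 11 and 20 at 0.1, and 8 were lower with quantile normalisation. The 14 calls that passed in all 27 other fits over the same genes were R13A5.7, which rose, and 13 that fell: srw-85, C50B6.7, cpr-6, F16C3.2, lipl-1, lipl-7, E04F6.9, Y53H1B.2, T19B10.2, tmem-231, F43C11.7, F41E6.5 and scl-2. The causes of these shifts were not tested. The zfp-1 transcript stayed between -0.07 and 0.1, and the 493 genes beyond all 11 other samples between 437 and 494 under other scalings and single arrays. The precision is limited by 2 mutant samples and by probe sets near the background, where values below 5 have no reliable order.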

Other observations

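The zig genes encode secreted immunoglobulin-domain proteins that maintain the position of axons. Of 7 tested, in a list drawn up after the values were seen, zig-6 and zig-7 fell and 0 rose, with a median of -0.44. ptr-8, of the patched-related family, was the 1 of 26 hedgehog-related and patched-related genes that passed, and it fell by 1.35, from 10.29, 9.85 and 9.77 to 8.67 and 8.58. Of 18 V-ATPase subunits 0 passed, with a median of 0.41, and of 32 proteasome subunits 0 passed, with a median of 0.19. Of 44 F-box genes 0 passed, with a median of -0.38, and of 25 BTB and MATH domain genes 0 passed, with a median of -0.06. Insulin-like peptides had 0 calls among 7 tested out of 24 with a probe set, with a median of -0.42.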
